A study of Mus musculus with 16 samples.

Results

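The 10 genes described here belong to the interleukin-1 system of mouse dendritic cells and were chosen by name: the agonist cytokine genes Il1a, Il1b, Il18 and Il33, the inhibitor genes Il1rn, Il1r2 and Il18bp, the receptor chain gene Il1rap, and the inflammasome genes Nlrp3 and Casp1. Each had 1 probe set that the array's annotation gives to that gene alone, and all 10 were among the 10236 genes tested, out of 19272 gene symbols with such a probe set. The 16 arrays measured RNA from C57BL/6 marrow cultures in which GM-CSF at 10 ng/mL drove precursors to become dendritic cells; such cultures can hold other myeloid cells. The groups of 4 arrays were cells in 450 mOsm/L medium with LPS, cells in 290 mOsm/L medium with LPS, cells in 450 mOsm/L medium without LPS and cells in 290 mOsm/L medium without LPS. The higher osmolarity was reached with NaCl added from day 3, and cells collected on day 7 were plated for 6 h more, with LPS at 10 ng/mL or without it. LPS, from the outer membrane of Gram-negative bacteria, is sensed by Tlr4. Each group holds 1 array from each of the same 4 mice, as the labels number them, and replicates are therefore different animals. The age and sex of the mice are not given in the labels used here.

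IL-1 alpha and IL-1 beta signal through a receptor that needs the shared chain encoded by Il1rap, and IL-33 uses the same chain with a different partner. Il1rn encodes a receptor antagonist that occupies the IL-1 receptor without signalling, Il1r2 encodes a decoy receptor that binds IL-1 without signalling, and Il18bp encodes a secreted protein that captures IL-18. IL-1 beta and IL-18 are made as inactive precursors that caspase-1, the product of Casp1, cuts once a sensor such as Nlrp3 has assembled an inflammasome. Transcript levels therefore do not report the amount of released cytokine. The genes lie, in GRCm38.p6, at chr2:129299609-129310186 (Il1a), chr2:129364569-129371164 (Il1b), chr9:50554700-50581841 (Il18), chr19:29925113-29960718 (Il33), chr2:24336860-24351491 (Il1rn), chr1:40084692-40125230 (Il1r2), chr7:102015074-102018232 (Il18bp), chr16:26581509-26730128 (Il1rap), chr11:59541569-59566955 (Nlrp3) and chr9:5298517-5307281 (Casp1).

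The values are log2 expression values, so a difference of 1 is a doubling. Array medians lay between 6.78 and 6.93, and 6.83, the median of all values, marked the level below which a probe set counted as dim. A gene was tested when at least 4 arrays exceeded it, which Il33 did on 6 arrays, all of them with LPS, and Il18 and Il1r2 on 12. Among dendritic cell markers, Itgax averaged 11.41 to 12.13 in the 4 groups and Cd74 13.53 to 13.66, while Cd209a and Xcr1 averaged 6.34 or less. Neutrophil markers were present as well, and they differed with salt: 14 of 16 were lower at 450 mOsm/L with LPS, and their mean over the list was 7.66 to 7.85 against 9.80 to 10.27 at 290 mOsm/L. Without LPS 15 of 16 were lower, with a mean of 6.97 to 7.13 at 450 mOsm/L against 9.62 to 10.17 at 290 mOsm/L. Mast cell and basophil markers had 1 of 6 tested genes higher and 3 lower with salt and LPS (median -1.20), and 6 of 6 lower without LPS (median -1.13). Of 10 macrophage markers, 7 were lower with LPS and 6 without LPS, and 0 were higher in either (medians -0.23 and -0.26). Dendritic cell markers had 2 of 10 tested genes higher and 3 lower with salt and LPS, and 1 higher and 1 lower without LPS (medians 0.07 and 0.04). Monocyte markers had 1 of 6 higher and 3 lower with LPS, and 2 higher and 2 lower without LPS (medians -0.47 and 0.31). Of all tested genes, 16.8% were called higher and 21.8% lower with salt and LPS, and 20.6% and 23.7% with salt alone. The part of these cells in the results below was not tested. In bulk RNA, fewer cells of a type and less RNA per cell cannot be told apart.

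The promoters of the genes on which the results turn most, the co-induced pair Il1a and Il1b and the salt-sensitive genes Il33 and Il1rn, are shown as the 250 bases before a transcription start in the RefSeq annotation of GRCm38.p6. RefSeq gave 14 such windows for the 10 genes, up to 3 a gene. Of the 3 for Il1rn the one at the gene's outermost start is printed, and the other two, which overlap each other, enter the counts alone. Capitals mark matches, on either strand, to TATAAA (the TATA box), TGANTCA (AP-1), a loose NF-kB pattern (GGG, any 5 bases, then CC) or TGGAAA (the NFAT core). An interferon response pattern (GAAA, any 2 bases, then GAAA) was searched too. Of the Il1rn windows not printed, chr2:24345121-24345370 holds TGGAAA at -62 to -57 from its start and the loose NF-kB pattern at -51 to -42. The other, chr2:24345041-24345290, holds no match. Il1r2, also not printed, has 1 window, without a match.
Il1a, minus strand, chr2:129309973-129310222: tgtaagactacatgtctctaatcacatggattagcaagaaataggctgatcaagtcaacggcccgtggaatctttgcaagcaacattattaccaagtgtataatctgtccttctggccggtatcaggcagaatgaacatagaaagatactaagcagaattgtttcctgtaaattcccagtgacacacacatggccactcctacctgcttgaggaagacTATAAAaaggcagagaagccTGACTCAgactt
Il1b, minus strand, chr2:129371140-129371389: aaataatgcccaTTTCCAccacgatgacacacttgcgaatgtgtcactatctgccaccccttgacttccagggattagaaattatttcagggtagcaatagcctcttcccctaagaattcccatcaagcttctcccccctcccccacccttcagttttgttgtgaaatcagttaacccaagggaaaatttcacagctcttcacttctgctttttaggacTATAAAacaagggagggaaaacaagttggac
Il33, plus strand, chr19:29924863-29925112: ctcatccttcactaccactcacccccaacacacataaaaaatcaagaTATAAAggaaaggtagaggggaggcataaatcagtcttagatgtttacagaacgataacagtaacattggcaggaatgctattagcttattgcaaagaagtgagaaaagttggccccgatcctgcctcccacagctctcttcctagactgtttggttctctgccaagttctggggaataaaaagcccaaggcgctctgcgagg
Il33, start within the gene, plus strand, chr19:29945540-29945789: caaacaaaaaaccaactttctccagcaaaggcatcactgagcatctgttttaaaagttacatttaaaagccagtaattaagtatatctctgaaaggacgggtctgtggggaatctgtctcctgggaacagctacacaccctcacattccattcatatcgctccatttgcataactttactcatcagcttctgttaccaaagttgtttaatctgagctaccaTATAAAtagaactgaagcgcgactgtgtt
Il1rn, plus strand, chr2:24336610-24336859: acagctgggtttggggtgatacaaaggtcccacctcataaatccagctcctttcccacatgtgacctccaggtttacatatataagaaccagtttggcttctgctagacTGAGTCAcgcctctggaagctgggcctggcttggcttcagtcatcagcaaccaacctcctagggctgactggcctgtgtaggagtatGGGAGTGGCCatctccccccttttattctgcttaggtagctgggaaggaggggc

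In the printed windows no match overlapped another, while in Il1rap, not printed, matches to the loose NF-kB pattern did. Counted from the start, TATAAA lay at -32 to -27 in Il1a, at -31 to -26 in Il1b, and at -29 to -24 before the Il33 start within the gene. Farther from the start, it lay at -203 to -198 before the outermost Il33 start and, on the other strand, at -175 to -170 in Il18. TATAAA at any position occurred in 5 of the 14 windows (4 genes) and in 12.4% of all 32851 promoter windows of this length. TGANTCA was found as TGACTCA in Il1a and TGAGTCA in Il1rn, 2 of the 14 windows, and in 6.75% of all windows. TGGAAA occurred in 5 of the 14 windows (4 genes) and in 18.6% of all windows, and the loose NF-kB pattern in 5 of the 14 (4 genes) and in 45.8% of all. The interferon response pattern occurred in 0 of the 14 windows and in 2.98% of all. Windows of the same gene are not independent. A match describes letters and is not evidence that a factor binds there.

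All 4 agonist genes were higher with LPS than without it, and of the 4 Il33 had the largest difference with salt, in cells with LPS. Il33, which encodes an alarmin normally stored in the nuclei of barrier cells, had log2 values of 9.73, 9.74, 8.95 and 9.45 in 450 mOsm/L cells with LPS, against 7.05, 7.29, 6.03 and 6.79 in 290 mOsm/L cells with LPS. The groups did not overlap, and the mouse with the lowest value was the same animal, replicate 3, in both. Without LPS it was dim throughout, with 4.81, 4.93, 4.67 and 4.86 at 450 mOsm/L and 4.61, 4.69, 4.69 and 4.68 at 290 mOsm/L. Salt raised Il33 6.41-fold in LPS-treated cells (log2 2.68 ± 0.20, SE, n = 4 per group, limma adjusted p = 1.23e-08), higher in 4 of 4 mice. The gene passed the filter only through arrays with LPS, 4 of them at 450 mOsm/L and 2 at 290 mOsm/L, so this size rests in part on dim values at 290 mOsm/L. In cells without LPS the difference was 0.15 ± 0.20 (adjusted p = 0.563 in limma), with a 95% interval of -0.27 to 0.57 between values that all lay below 6.83. The rise with LPS itself was 4.65 ± 0.20 at 450 mOsm/L against 2.12 ± 0.20 at 290 mOsm/L, and these differ by 2.53 ± 0.28 (limma adjusted p = 4.78e-06). Both rises start at means below 5, where dim signal sets the values, so their sizes are not exact. Beside this gene, markers of fibroblasts and endothelium, cell types known to make IL-33, had 1 of 4 tested genes higher with salt and LPS, the receptor gene Kdr (1.38 ± 0.12), which is named here with its value known. Their mean over 10 genes was 6.83 to 6.90 in 450 mOsm/L cells with LPS against 6.50 to 6.66 in 290 mOsm/L cells with LPS, and 6 of the 10 were too dim to be tested. Without LPS, where Il33 was dim, 4 of the 4 were higher. Of all tested genes, 16.8% were called higher with salt and LPS and 20.6% with salt alone. The part of fibroblasts and endothelium in the Il33 result was not tested.

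Il1a and Il1b, which encode the classical IL-1 agonists, had values above 12 on every array with LPS and differed there by 0.25 (Il1a) and 0.18 (Il1b) between the means of 450 and 290 mOsm/L cells. Il1b had 13.47, 13.57, 13.42 and 13.45 in 450 mOsm/L cells with LPS, against 13.26, 13.31, 13.31 and 13.32 in 290 mOsm/L cells with LPS. Without LPS the spread was wide, with 8.90, 8.21, 8.38 and 8.15 at 450 mOsm/L and 8.13, 8.78, 7.93 and 8.73 at 290 mOsm/L, and those groups overlapped. Il1a had 13.24, 13.25, 13.16 and 13.21 in 450 mOsm/L cells with LPS, against 12.88, 13.07, 12.95 and 12.95 in 290 mOsm/L cells with LPS. With LPS neither gene's groups overlapped, although the differences were small. Salt in LPS-treated cells gave 0.25 ± 0.14 for Il1a (limma adjusted p = 0.168) and 0.18 ± 0.17 for Il1b (limma adjusted p = 0.403), each higher in 4 of 4 mice. That test shares 1 spread over all groups. The SD of Il1b was 0.0253 to 0.0642 in the LPS groups and 0.342 to 0.427 without LPS, and that of Il1a 0.0404 to 0.0752 and 0.293 to 0.347. Fitted on the 2 LPS groups alone, both passed, with adjusted p = 0.0025 for Il1a and adjusted p = 0.0102 for Il1b in limma. An exact two-sided permutation test of either gene gave p = 0.0286, the smallest that 4 arrays against 4 allow. The highest value on any array was 14.32.

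Without LPS Il1a had 8.91, 8.52, 8.71 and 8.22 at 450 mOsm/L, against 9.16, 9.16, 8.43 and 8.89 at 290 mOsm/L, with overlapping groups. The difference was -0.32 ± 0.14 (limma adjusted p = 0.0719), lower in 3 of 4 mice. It passed without the 290 mOsm/L replicate 3 array (-0.48, limma adjusted p = 0.00343) and without the 450 mOsm/L replicate 1 array (-0.43, limma adjusted p = 0.02). For Il1b the difference was 0.02 ± 0.17 (limma adjusted p = 0.933), with a 95% interval of -0.33 to 0.37. Its sign turned under median centring (-0.036).

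Il18 encodes the agonist whose precursor, like that of IL-1 beta, is cut by caspase-1. It had 9.53, 9.63, 9.25 and 9.50 in 450 mOsm/L cells with LPS, against 9.79, 9.80, 9.73 and 9.79 in 290 mOsm/L cells with LPS, so every 450 mOsm/L array lay below every 290 mOsm/L array. It fell 1.23-fold with salt in LPS-treated cells (-0.30 ± 0.10, limma adjusted p = 0.0292), lower in 4 of 4 mice. The call was lost under 8 of 31 alternatives, among them quantile normalization (limma adjusted p = 0.0989) and leaving out the 450 mOsm/L with LPS replicate 3 array (limma adjusted p = 0.109) or any 1 of 3 arrays at 290 mOsm/L with LPS, replicates 1, 2 and 4 (0.0566, 0.0592 and 0.0565). Without LPS its means were 6.65 at 450 mOsm/L and 6.82 at 290 mOsm/L, both dim, with overlapping groups (-0.17 ± 0.10, limma adjusted p = 0.2).

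**Figure D1:**
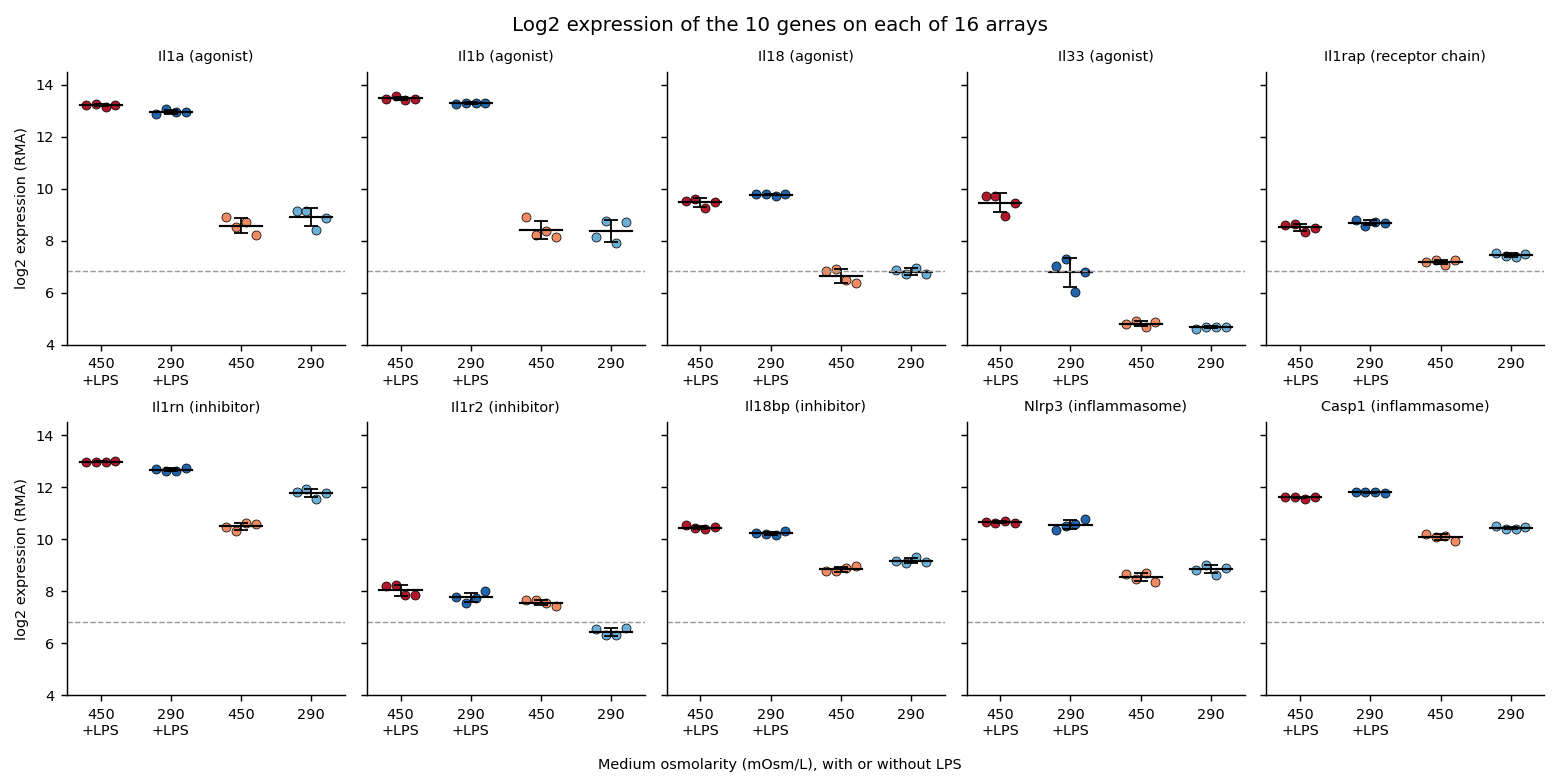
Log2 expression (y axis) of the 10 genes in cells at 450 or 290 mOsm/L, with and without LPS (x axis). Points are arrays, 4 per group, long bars the mean and error bars the SD, and the dashed line marks 6.83, the level used by the filter; Il33 stands near 9.47 at 450 mOsm/L with LPS and 6.79 at 290 mOsm/L with LPS, and below 5 without LPS.

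Of the inhibitors, Il1rn changed most with salt, and its direction depended on LPS. It had 12.99, 12.95, 12.99 and 12.99 in 450 mOsm/L cells with LPS, against 12.70, 12.64, 12.61 and 12.76 in 290 mOsm/L cells with LPS. Without LPS it had 10.48, 10.31, 10.60 and 10.59 at 450 mOsm/L, against 11.81, 11.93, 11.56 and 11.80 at 290 mOsm/L. Neither pair of groups overlapped. Salt lowered Il1rn 2.43-fold in cells without LPS (-1.28 ± 0.07, limma adjusted p = 4.17e-10) and raised it 1.23-fold in cells with LPS (0.30 ± 0.07, limma adjusted p = 0.00324), each in 4 of 4 mice. LPS raised it by 2.48 ± 0.07 at 450 mOsm/L against 0.90 ± 0.07 at 290 mOsm/L, a difference of 1.58 ± 0.10 (limma adjusted p = 1.13e-08). In this difference the lower start at 450 mOsm/L without LPS (-1.28) weighs more than the higher level with LPS (0.30). Values with LPS were high, and very high signals are compressed, so the sizes are not exact. The calls for Il1rn were kept in all alternatives run. Neutrophils also express Il1rn, and the fall of their markers given above ran beside its fall without LPS, while with LPS those markers were lower and Il1rn was higher. The part of neutrophil RNA in either value was not tested.

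The decoy receptor gene Il1r2 moved the other way from Il1rn in cells without LPS. It had 7.65, 7.65, 7.53 and 7.41 at 450 mOsm/L without LPS, against 6.54, 6.31, 6.31 and 6.59 at 290 mOsm/L without LPS, with no overlap. It rose 2.18-fold (1.13 ± 0.10, limma adjusted p = 1.73e-07), higher in 4 of 4 mice, and all 290 mOsm/L values lay below 6.83, so the fold rests on dim values there. With LPS it had 8.20, 8.25, 7.86 and 7.85 at 450 mOsm/L, against 7.79, 7.55, 7.74 and 7.99 at 290 mOsm/L, and the groups overlapped. That difference was 0.27 ± 0.10 (limma adjusted p = 0.048), higher in 3 of 4 mice, and the call was lost under 17 of 31 alternatives, with adjusted p up to 0.372 in limma without replicate 2 (0.13). Leaving out any 1 of 10 of the 16 arrays ended it, with limma adjusted p of 0.0502 to 0.159. The LPS response was smaller at 450 mOsm/L (0.48 ± 0.10) than at 290 mOsm/L (1.33 ± 0.10), a difference of -0.85 ± 0.15 (limma adjusted p = 0.000385). In the order of its levels, 450 mOsm/L with LPS, 290 mOsm/L with LPS and 450 mOsm/L without LPS overlapped with their neighbours, and 290 mOsm/L without LPS lay below all of them. Neutrophils express this gene too. Their markers were lower at 450 mOsm/L, where Il1r2 was higher, and the part of neutrophil RNA in its values was not tested.

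Il18bp, the soluble inhibitor of IL-18, had 10.55, 10.41, 10.38 and 10.45 in 450 mOsm/L cells with LPS, against 10.23, 10.22, 10.17 and 10.30 in 290 mOsm/L cells with LPS. Without LPS it had 8.76, 8.78, 8.88 and 8.96 at 450 mOsm/L, against 9.15, 9.08, 9.32 and 9.13 at 290 mOsm/L. Neither pair of groups overlapped, and like Il1rn the gene was lower with salt in cells without LPS (-0.33 ± 0.06, limma adjusted p = 0.000384) and higher with salt in cells with LPS (0.22 ± 0.06, limma adjusted p = 0.00827). Both directions held in 4 of 4 mice. The rise with LPS was lost without replicate 1 (0.19, limma adjusted p = 0.072). The LPS response was 1.61 ± 0.06 at 450 mOsm/L against 1.06 ± 0.06 at 290 mOsm/L, a difference of 0.55 ± 0.09 (limma adjusted p = 0.000169).

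Il1rap, the signalling chain shared by the IL-1 and IL-33 receptors, had 8.60, 8.65, 8.32 and 8.49 in 450 mOsm/L cells with LPS, against 8.81, 8.57, 8.74 and 8.67 in 290 mOsm/L cells with LPS. The groups overlapped, and the difference of -0.18 ± 0.07 did not pass (limma adjusted p = 0.0556), although it did with the mouse as a replicate block (limma adjusted p = 0.0396). It also passed without the 450 mOsm/L with LPS arrays of replicate 1 (limma adjusted p = 0.0489) or 2 (0.0262), the 290 mOsm/L with LPS array of replicate 2 (0.0295) or the 450 mOsm/L array of replicate 3 (0.0491). Without LPS it had 7.17, 7.25, 7.07 and 7.26 at 450 mOsm/L, against 7.52, 7.42, 7.36 and 7.51 at 290 mOsm/L, with no overlap, and it fell by 0.27 ± 0.07 (limma adjusted p = 0.00669).

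Casp1, which encodes the protease that matures IL-1 beta and IL-18, was lower with salt in both settings. It had 11.63, 11.61, 11.56 and 11.63 in 450 mOsm/L cells with LPS, against 11.82, 11.81, 11.82 and 11.78 in 290 mOsm/L cells with LPS, a change of -0.20 ± 0.05 (limma adjusted p = 0.00447). Without LPS it had 10.20, 10.09, 10.11 and 9.95 at 450 mOsm/L, against 10.49, 10.41, 10.39 and 10.45 at 290 mOsm/L, a change of -0.35 ± 0.05 (limma adjusted p = 3.41e-05). No groups overlapped, and both falls held in 4 of 4 mice and in every alternative run.

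Nlrp3, the sensor gene, had 10.66, 10.61, 10.71 and 10.63 in 450 mOsm/L cells with LPS, against 10.37, 10.53, 10.59 and 10.77 in 290 mOsm/L cells with LPS. These groups overlapped (0.09 ± 0.09, limma adjusted p = 0.444). Without LPS it had 8.65, 8.47, 8.71 and 8.35 at 450 mOsm/L, against 8.82, 9.0, 8.63 and 8.89 at 290 mOsm/L, overlapping too. It was lower by the test (-0.29 ± 0.09, limma adjusted p = 0.0149), in 3 of 4 mice. The call was lost without replicate 2 (limma adjusted p = 0.154) or replicate 4 (limma adjusted p = 0.0969) as a whole. Leaving out the 450 mOsm/L replicate 4 array (limma adjusted p = 0.0585) or the 290 mOsm/L replicate 2 array (limma adjusted p = 0.0548) also ended it.

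Counted over the 10 genes, salt in cells with LPS raised 4 and lowered 2, where 16.8% of all tested genes were called higher and 21.8% lower (38.6% in all). Without replicate 1, 3 of the 10 were called. Salt in cells without LPS raised 1 of the 10 and lowered 5, where 20.6% of all tested genes were called higher and 23.7% lower (44.3% in all); under median centring these shares were 13.1% and 29.8%. The median change of the 10 was 0.20 with LPS and -0.28 without LPS, beside 0.00 for all genes in each. The calls with LPS were Il33, Il1rn, Il18bp and Il1r2 higher and Il18 and Casp1 lower. Those without LPS were Il1r2 higher and Il1rn, Il18bp, Il1rap, Nlrp3 and Casp1 lower, so no agonist gene was called there.

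**Figure D2:**
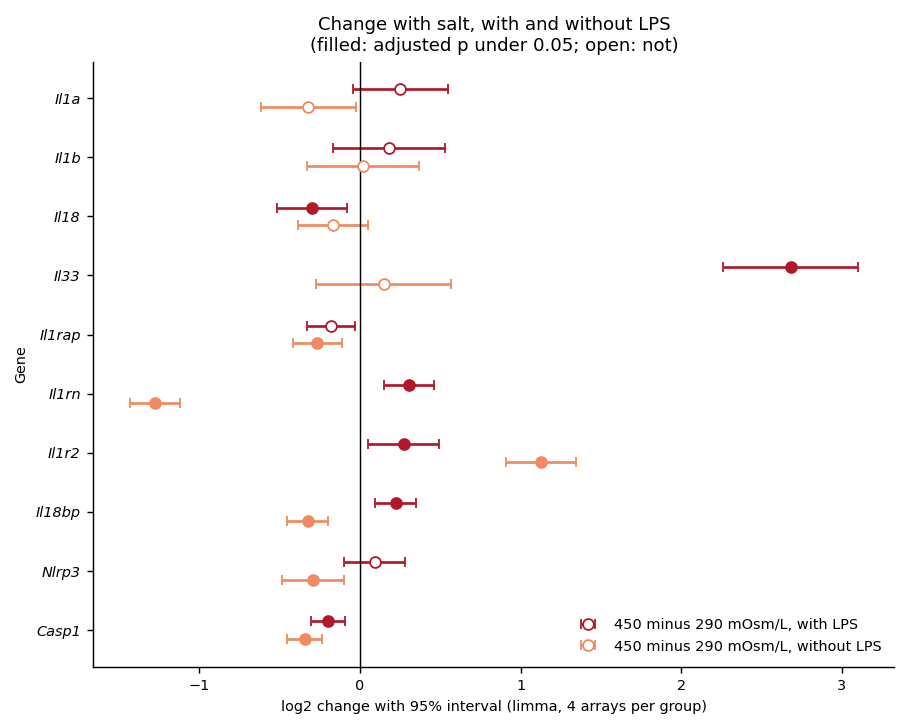
Log2 difference of 450 minus 290 mOsm/L (x axis) with limma's 95% interval for the 10 genes (y axis), in cells with LPS (red) and without LPS (orange), 4 arrays per group; filled points passed the test and open points did not. Il33 stands apart with LPS at 2.68, and Il1rn lies at 0.30 with LPS and -1.28 without LPS.

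LPS raised all 10 genes at both osmolarities. At 450 mOsm/L 71.8% of all tested genes were called, 26.4% higher and 45.3% lower, and at 290 mOsm/L 73.5% were called, 26.4% higher and 47.1% lower. That balance depends on the scaling: with cyclic loess 36.4% were higher and 35.8% lower at 450 mOsm/L, and 37.7% were higher and 36.5% lower at 290 mOsm/L. The median change of the 10 was 2.30 at 450 mOsm/L and 1.55 at 290 mOsm/L, against -0.09 and -0.11 for all genes, which cyclic loess moved to 0.03 and 0.02. Il1b had the largest rise of the 10, 33.6-fold at 450 mOsm/L and 30-fold at 290 mOsm/L, and Il1a rose 24.7-fold at 450 mOsm/L against 16.6-fold at 290 mOsm/L. Il18 rose 7.11-fold at 450 mOsm/L and 7.80-fold at 290 mOsm/L, from dim values. Casp1 rose 2.86-fold at 450 mOsm/L and 2.59-fold at 290 mOsm/L, Nlrp3 4.32-fold and 3.31-fold, and Il1rap 2.51-fold and 2.37-fold. The 2 responses share no arrays, and the difference between them was tested for each gene.

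That difference passed for 6 of the 10 genes, where 21.1% of all tested genes passed. The response was larger at 450 mOsm/L for Il33, Il1rn, Il18bp, Il1a and Nlrp3, where 10.7% of all tested genes were called in that direction, and smaller for Il1r2, where 10.4% were. For Il1a it was 0.57 ± 0.20 (limma adjusted p = 0.0481) and for Nlrp3 0.38 ± 0.13 (limma adjusted p = 0.0403). Both calls lay near the threshold: Il1a lost it under 20 of 30 alternatives and Nlrp3 under 17 of 30. Leaving out 1 array ended the Il1a call for 13 of the 16 arrays and the Nlrp3 call for 12 of them, with limma adjusted p up to 0.103 and 0.0866. Without replicate 2 as a whole, limma adjusted p was 0.227 for Il1a and 0.243 for Nlrp3. The Il1a difference was positive in 3 of 4 mice. The mouse as a replicate block also ended the Nlrp3 call (limma adjusted p = 0.0587). For Il1b (0.16 ± 0.23), Il18 (-0.13 ± 0.15), Il1rap (0.09 ± 0.10) and Casp1 (0.15 ± 0.07) the difference did not pass, with adjusted p from 0.172 to 0.687 in limma.

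Agonists were set against their inhibitors through the change of each agonist minus the change of its inhibitor, for 5 pairs and 4 comparisons. An exact two-sided permutation test over 4 arrays against 4 cannot go below p = 0.0286, and 15 of the 20 tests reached it, with adjusted p = 0.0381 over the 20. These values compare changes between groups and not levels of different probe sets. Without LPS, salt moved Il1b over Il1rn by 1.30 on the log2 scale (0.63 to 2.10 in the 4 mice) and Il1a over Il1rn by 0.96 (0.54 to 1.23), both at exact p = 0.0286. In both, the shift came from the fall of Il1rn (-1.28). Il1b changed by 0.02, and Il1a by -0.32, against the direction of the shift, and neither passed in limma. Against the decoy receptor the sign was opposite: Il1b moved by -1.11 relative to Il1r2 (-1.91 to -0.34) and Il1a by -1.45 (-1.99 to -0.94), also at exact p = 0.0286.

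With LPS, no IL-1 pair passed for salt. Il1a, Il1b and Il1rn were high there, and very high signals are compressed, so a shift could be missed. Il1b changed by -0.12 relative to Il1rn (-0.27 to -0.05 in the 4 mice, exact p = 0.0857) and by -0.09 relative to Il1r2 (-0.43 to 0.28, exact p = 0.486). Il1a changed by -0.05 relative to Il1rn (-0.17 to 0.07, exact p = 0.457) and by -0.02 relative to Il1r2 (-0.51 to 0.40, exact p = 0.914). The IL-18 pair did differ there. Il18 moved by -0.52 relative to Il18bp (-0.69 to -0.37, exact p = 0.0286, adjusted p = 0.0381), with the agonist lower and the inhibitor higher, while without LPS the value was 0.16 (-0.19 to 0.50, exact p = 0.4).

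LPS itself raised each agonist more than its inhibitor in 4 of 4 mice. For Il1b over Il1rn the margin was 2.58 ± 0.36 at 450 mOsm/L against 4.00 ± 0.34 at 290 mOsm/L (SD, n = 4 mice), and for Il18 over Il18bp 1.22 ± 0.32 against 1.90 ± 0.06. For Il1b over Il1r2 it was 4.59 ± 0.39 at 450 mOsm/L against 3.58 ± 0.40 at 290 mOsm/L. Within a mouse, the margin of Il1b over Il1rn was smaller at 450 mOsm/L by 0.73 to 2.17 in each of the 4 animals, and that of Il18 over Il18bp by 0.26 to 0.93, whereas that of Il1b over Il1r2 was larger by 0.14 to 1.70. These differences of margins are given as values and were not tested. Without LPS, Il1rn already averaged 11.77 at 290 mOsm/L and 10.50 at 450 mOsm/L. Il18 averaged a dim 6.82 and 6.65 there, and Il1r2 a dim 6.44 at 290 mOsm/L. Very low and very high signals are compressed, so the sizes of the margins are not exact.

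**Figure D3:**
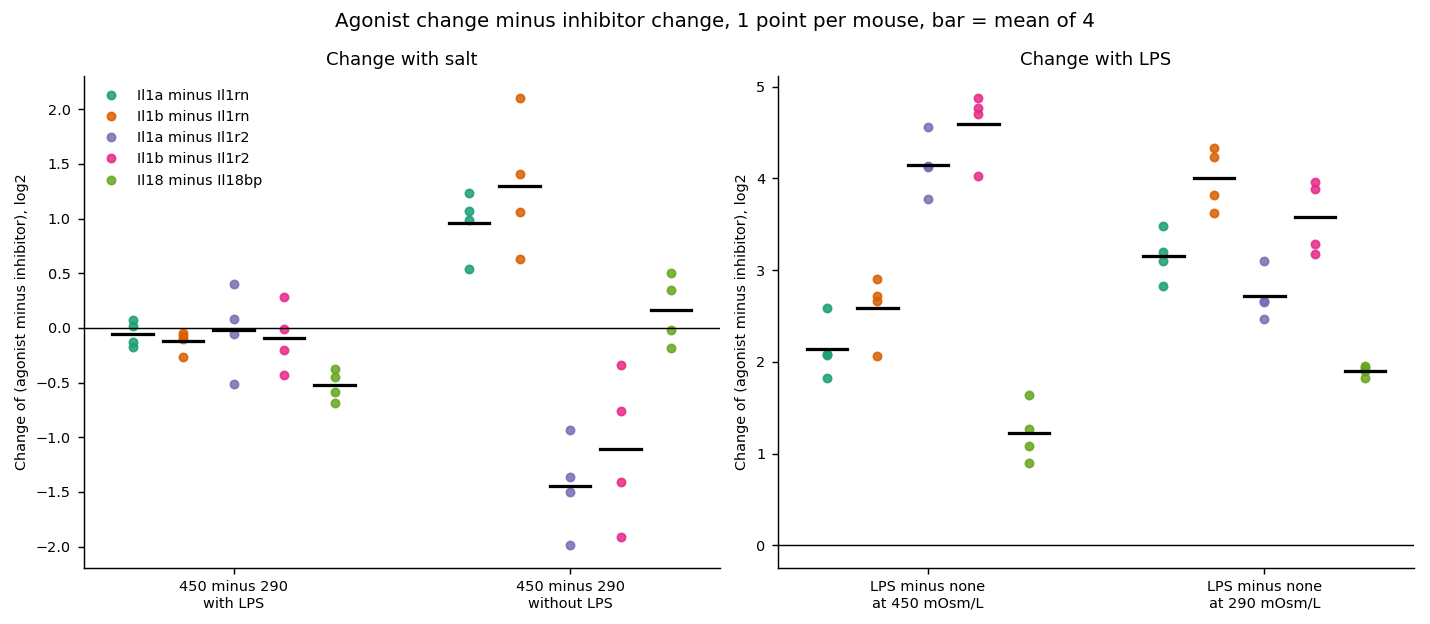
Change of the agonist minus change of the inhibitor on the log2 scale (y axis) for 5 pairs, with salt (left) and with LPS (right); points are mice and bars the mean of 4. With salt and no LPS the pairs with Il1rn lie above 0 and those with Il1r2 below 0, and with LPS the Il18 pair lies at -0.52.

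The rest of the pathway was counted in lists that do not overlap with the 10 genes. Beside every list's counts with salt stand the shares of all tested genes. These were 16.8% higher and 21.8% lower with salt and LPS, and 20.6% higher and 23.7% lower with salt alone. Of 5 other IL-1 family ligands, 2 were bright enough to test: Il1f6, which encodes IL-36 alpha, and Il1f9, which encodes IL-36 gamma. Il1f6 ranged over 7.19 to 7.71 in 450 mOsm/L cells with LPS and 6.75 to 7.12 in 290 mOsm/L cells with LPS. It was higher with salt in cells with LPS (0.62 ± 0.12, limma adjusted p = 0.00066) and lower with salt in cells without LPS (-0.52 ± 0.12, limma adjusted p = 0.00264), where both means (5.08 and 5.59) were dim. Il1f9 was at 0.16 ± 0.16 with LPS and -0.30 ± 0.16 without LPS and passed in neither (limma adjusted p = 0.47 and 0.141). Among receptors, Il1rl2, the receptor for IL-36, was higher with salt and LPS (0.55 ± 0.10) and lower with salt without LPS (-0.28 ± 0.10), and Il18rap, the accessory chain of the IL-18 receptor, was lower in both (-0.85 ± 0.07 and -0.27 ± 0.07; its 450 mOsm/L arrays with LPS lay at a dim 6.10 to 6.28). These were the 2 of 8 listed receptors that could be tested. The median of the ligands was 0.39 with LPS and -0.41 without LPS, and that of the receptors -0.15 and -0.27, beside 0.00 for all genes.

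Of 21 tested inflammasome sensors, adaptors and effectors, 5 were higher and 8 lower with salt and LPS, with a median of 0.00 beside 0.00 for all genes. Txnip, a redox protein reported to bind Nlrp3, fell by 1.03 ± 0.06, while P2rx7, the ATP-gated channel that triggers Nlrp3, rose by 0.37 ± 0.06 and Casp8, a caspase that can also cut IL-1 beta, by 0.25 ± 0.05. Without LPS 3 were higher and 7 lower, with a median of 0.05. There Gsdmd, which encodes the pore through which IL-1 beta leaves the cell, rose by 0.46 ± 0.05, and Casp4, which encodes the caspase that senses LPS inside the cell, fell by 0.41 ± 0.08. LPS at 290 mOsm/L raised 11 and lowered 8 of the 21, where 26.4% of all tested genes were called higher and 47.1% lower. The rises were led by Gbp5, a GTPase linked to inflammasome assembly (6.17 ± 0.09), Casp4 (3.06 ± 0.08) and Mefv, the pyrin sensor (2.42 ± 0.10).

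Among 5 tested genes that restrain inflammasomes or NF-kB, 1 was higher and 0 lower with salt and LPS, and 2 were higher and 2 lower with salt alone (medians 0.14 and -0.10). Tnfaip3, which encodes the NF-kB inhibitor A20, had the same signs as Il1rn, with 0.40 ± 0.10 with LPS and -0.91 ± 0.10 without LPS, and its LPS response was larger at 450 mOsm/L by 1.30 ± 0.14 (limma adjusted p = 4.11e-06). Trim30a, an inhibitor of Nlrp3 activation in mouse, rose without LPS (0.67 ± 0.07) and was at -0.08 ± 0.07 with LPS (limma adjusted p = 0.385). The granzyme B inhibitor gene Serpinb9 fell without LPS (-0.44 ± 0.13) and was at 0.31 ± 0.13 with LPS (limma adjusted p = 0.0611).

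In the signalling list, 2 of 15 genes were higher and 3 lower with salt and LPS (median -0.04), and 5 were higher and 2 lower with salt alone (median 0.01). With LPS the ubiquitin ligase gene Traf6 rose by 0.24 ± 0.06, and the kinase gene Irak1 fell by 0.19 ± 0.05, Peli1 by 0.20 ± 0.05 and the adaptor gene Myd88 by 0.23 ± 0.07. Without LPS the inhibitory family member Irak3 rose by 0.45 ± 0.07, and Ikbkg, a subunit of the kinase that frees NF-kB, fell by 0.38 ± 0.06. Of 5 tested proteases that can cut IL-1 family precursors outside the inflammasome, the neutrophil genes Prtn3 and Elane fell with salt in both settings, Prtn3 by 0.86 ± 0.17 with LPS and by 0.87 ± 0.17 without LPS. The list had 1 gene higher and 2 lower with LPS, 0 higher and 2 lower without LPS, and medians of -0.16 and -0.06. Elane is also 1 of the 16 neutrophil markers. At 450 mOsm/L, Prtn3 averaged a dim 6.54 with LPS and 6.47 without LPS, and Elane 6.40 and 6.60. The sizes of their falls therefore rest on dim values there.

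**Figure D4:**
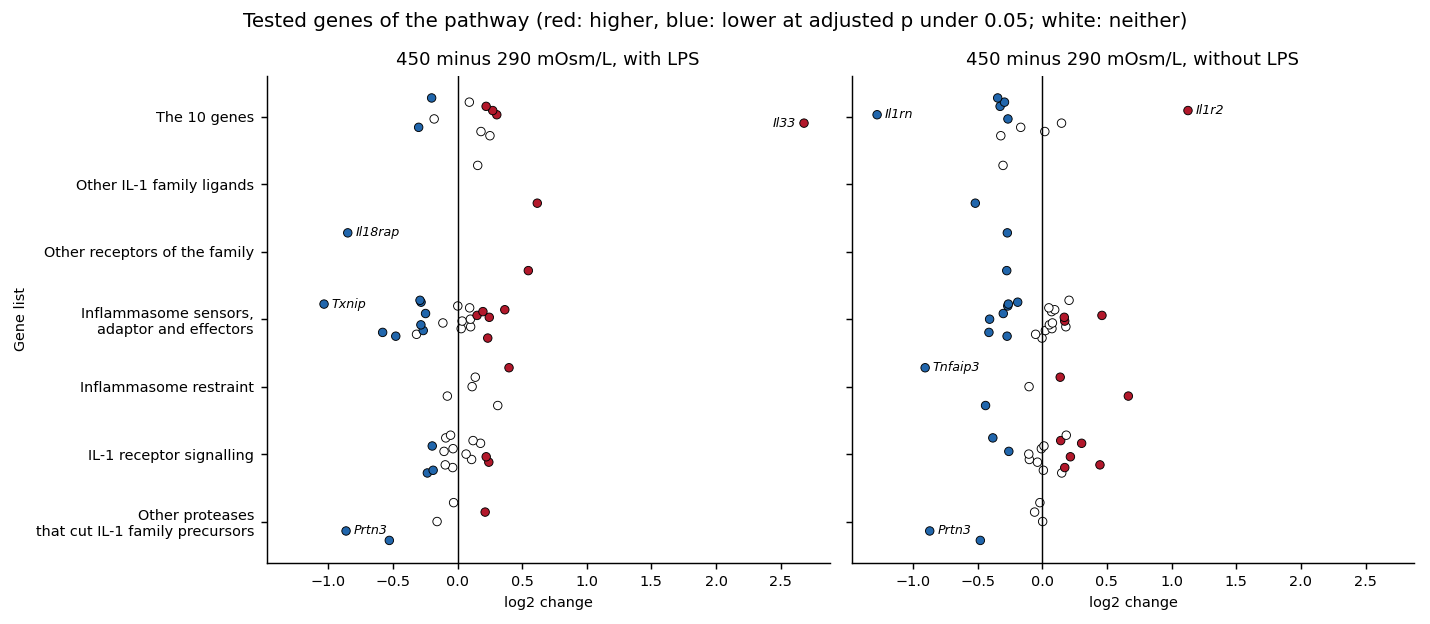
Log2 difference of 450 minus 290 mOsm/L (x axis) of each tested gene in the 10-gene set and 6 pathway lists (rows), with LPS (left) and without LPS (right). Red points passed higher, blue points lower, white points neither; Il33 at 2.68 with LPS and Il1rn at -1.28 without LPS lie farthest from 0.

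By Pearson's r over the 16 arrays, the genes with levels most like Il33 were Sipa1l1 (0.990), Cish, a feedback inhibitor of cytokine signalling (0.989), and the receptor gene Slamf1 (0.989). Those most like Il1b were Tnfsf15 (0.998), the mitochondrial dehydrogenase gene Gpd2 (0.998) and the chemokine gene Cxcl10 (0.997). For Il1rn they were Lcp1 (0.988), Traf5 (0.987) and Zfp558 (0.985), and for Il1r2 the interferon-induced gene Ifitm3 (0.972), the LPS-degrading enzyme gene Aoah (0.970) and Rnf145 (0.970). For Il18bp they were the glycolysis regulator gene Pfkfb3 (0.993), Ist1 (0.991) and Slc11a2 (0.990). The arrays fall into 4 groups with and without LPS, which any 2 LPS-induced genes share, so these values describe likeness and carry no test.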

How the data were processed

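Transcript levels were measured on 16 arrays, 4 for each of 4 groups, and the labels give each replicate number the same mouse in every group. The deposited series table holds log2 values of 22549 probe sets; per the submitters' processing notes the authors used RMA in the oligo package. No version is stated there. RMA sets arrays relative to each other and compresses very low and very high signals. The number of arrays limits the precision.

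Probe sets needed a value above 6.83 on 4 or more arrays. Where several probe sets named the same gene, the one of highest mean stood for it, leaving 10236 genes. Group differences came from limma 3.58.1 under R 4.3.3 (1 model with 4 group means, 12 residual degrees of freedom), two-sided, with Benjamini-Hochberg adjustment over all tested genes at a threshold of 0.05; errors of log2 changes are limma's SE. The model was tested on simulated data. Agonist and inhibitor pairs were tested with exact permutation tests in scipy 1.17.1. Neither the main limma model nor these permutation tests used the pairing of arrays by mouse. Figures were drawn with matplotlib 3.10.9. The replicate numbers pair the arrays because they mark the same animal; deviations from group means had an r across genes of -0.146 to 0.433 between same-mouse arrays (median 0.095 over 24 pairs).

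The 10 genes and the pathway and marker lists were chosen with earlier results of these data known. All 10 genes were named; from the pathway lists, the 3 called genes with the smallest adjusted p per comparison could be named, as could the 3 genes most like Il1b, Il1rn, Il33, Il1r2 and Il18bp, of which the text names part. Sequences and gene positions came from RefSeq tables of GRCm38.p6, and the motifs were picked after the values were seen. Alternatives were other filters, normalizations, variance models, probe set averaging, the groups compared alone, the mouse as a replicate block, and leaving out each mouse or array.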

Additional observations from a re-analysis of the deposited data

Results flagged for a closer look

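The responses to LPS at 450 and 290 mOsm/L differed, by the interaction term in limma, for 6 of the 10 genes, where 21.1% of all tested genes passed. The values of 450 minus 290 mOsm/L were 2.53 for Il33, 1.58 for Il1rn, 0.57 for Il1a, 0.55 for Il18bp, 0.38 for Nlrp3 and -0.85 for Il1r2. The call for Il1a was lost under 20 of 30 alternatives and that for Nlrp3 under 17 of 30. Within a group of 4 arrays, 1 array lay far from the other 3 in 3 of 40 groups, where chance gives about 1 in 20. In 290 mOsm/L cells with LPS, Il1b was 13.26 in replicate 1 against 13.31 to 13.32 in the others, and Il18 was 9.73 in replicate 3 against 9.79 to 9.80. In 290 mOsm/L cells without LPS, Il33 was 4.61 in replicate 1 against 4.68 to 4.69. Each of these gaps was under 0.1 on the log2 scale.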

How the results depend on the processing

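Across the 10 genes and 5 comparisons, 519 of 540 values from alternatives other than leaving out arrays kept their direction and their side of the threshold. The same held for 929 of 1000 values that left out a mouse or an array. Many of these differences could not move, so the counts overstate how far the results were tried. With 1 probe set a gene, other filters and probe set averaging kept its values. Leaving out an array outside the groups compared kept the difference and altered only its test. The number of genes called stayed at 10 for LPS at either osmolarity, and lay between 3 and 7 for salt with LPS, 5 and 7 for salt without LPS, and 4 and 6 for the difference of LPS responses; leaving out replicates gave 3 to 6, 5 to 7 and 4 to 6. Il33 with LPS and salt lay between 2.43 and 2.85, and Il1rn without LPS between -1.39 and -1.16. The direction of Il1b with salt and no LPS turned under median centring (-0.0364), array weights (-0.0419) and on leaving out replicates or arrays (-0.23 to 0.22), and that of its difference of LPS responses on leaving out replicates (-0.0603 to 0.40); neither passed the test in any of these, and the cause was not tested. The change of Il1a relative to Il1r2 with salt and LPS turned under cyclic loess (0.0611), without passing. All 15 passing pair tests passed under the 4 alternatives that allow a test. Of these, probe set averaging and median centring could not change a pair value. Each gene had 1 probe set, and centring shifts both genes of an array alike. Quantile normalization and cyclic loess could change it. Leaving out a mouse, or an array of the groups compared, leaves too few arrangements for p to reach 0.05, so those gave values alone. Arrays of the other groups do not enter a pair test. The block by mouse changed 2 calls, those of Il1rap with salt and LPS (adjusted p = 0.0396) and of the Nlrp3 difference of LPS responses (adjusted p = 0.0587), both given above, and no other call of the 10 genes. Signal limits Il33, Il18 and Il1r2, whose lowest groups averaged below 6.83, and Il1a, Il1b and, at 450 mOsm/L, Il1rn, whose arrays with LPS lay within 1.5 of the top of the scale.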
